A study of Mus musculus with 12 samples.

Results

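The CCN genes encode a small family of matricellular proteins, which are secreted into the extracellular matrix to carry signals rather than to build it. The family was examined in bulk RNA sequencing of the arcuate nucleus (ARC), a part of the mediobasal hypothalamus, in female mice. It was chosen because of Ccn3, the member that the study took up from these libraries, and Ccn3 itself was selected on its measured values, namely on the genotype contrast on chow and the diet contrast in mutants. All 6 mouse CCN genes were sought by their current symbols and their older names (Cyr61, Ctgf, Nov and Wisp1 to Wisp3). A row was found for 4 of them, Ccn1, Ccn2, Ccn3 and Ccn6, among the 16640 genes of the table, and Ccn4 and Ccn5 were not analysed here. The question put to the data was whether the pattern of Ccn3 is shared by its relatives.

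Control animals carried loxP-flanked Esr1 (Esr1fl/fl), the gene for oestrogen receptor alpha. Mutant animals carried the same floxed Esr1 with a Cre recombinase driven by Nkx2-1 (Esr1 Nkx2-1-cre), so that the deletion covers every cell with a history of Nkx2-1 expression and not a chosen type of ARC neuron. The animals were females of 27 weeks on a mixed CD-1 and 129P2 background, fed standard chow or, for 17 weeks, a high-fat diet (HFD). There were 3 libraries of control chow, 4 of mutant chow, 2 of control HFD and 3 labelled mutant HFD, and nothing in the labels says which libraries came from separate animals or whether tissue was pooled, so p-values measure the spread between these libraries only.

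Values are the abundance signal deposited by the authors. It is normalised for gene length and lies near the scale of TPM, a measure of transcript share, so levels can be set side by side between genes, but the sequencing depth is unknown. Column totals ran from 922172 to 1254999, and the number of genes listed at 0 ran from 201 to 1768, the most in mutant chow replicate 3. Agrp and Pomc, markers of ARC neurons, were present in every library. The targeted gene, Esr1, stood at 17.8, 7.29 and 19.8 in control chow, at 6.05, 3.15, 1.93 and 1.65 in mutant chow, and at 15.3 and 22.4 in control HFD. It stood at 10.7, 16.6 and 11.9 in the libraries labelled mutant HFD, which all lay above every mutant chow library and, in 1 of 3, above the lower control HFD library. These 3 libraries thus go against their label at the targeted gene. Ajuba was picked below from these data for its separation of the genotypes on chow, and it was not called in any comparison. Its signal ran from 1.837 to 3.326 in these libraries and from 5.711 to 6.966 in control HFD, and mutants were lower on chow too. The genotype of these libraries was not tested. They are called the libraries labelled mutant HFD below. The comparisons named diet in mutants, genotype on HFD and genotype by diet all rest on them, and this limit holds for every value of these comparisons.

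CCN proteins share a modular build, with an insulin-like growth factor binding protein-like module, a von Willebrand factor type C module, a thrombospondin repeat and, in most members, a cystine knot. They act through integrins, proteoglycans and LRP receptors, and CCN3 also binds NOTCH1. Ccn1 and Ccn2 are standard target genes of the Hippo pathway, whose effectors YAP and TAZ work with TEAD factors, and Ccn2 is further induced by TGF-beta. CCN3 is known for opposing CCN2 in several settings of fibrosis and for acting on skeletal cells. In the brain, family members are found in neurons, glia and vessels.

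On the GRCm38 (mm10) build, Ccn3 (ENSMUSG00000037362) lies on chromosome 15, 54745702 to 54754039, plus strand. Ccn2 (ENSMUSG00000019997) lies on chromosome 10, 24595442 to 24598683, plus strand, where it overlaps the annotated gene Gm15270. Ccn1 (ENSMUSG00000028195) lies on chromosome 3, 145646976 to 145649981, minus strand. Ccn6 (ENSMUSG00000062074) lies on chromosome 10, 39150970 to 39163794, minus strand, where it overlaps Tube1. All 4 are protein coding genes with 5 exons in GENCODE M21.

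Because the genes are related in sequence, their transcripts were compared before their values. The coding sequences of Ccn3 (1065 bases) and Ccn2 (1047 bases) were identical at 65.8% of 1026 aligned bases, those of Ccn3 and Ccn1 (1140 bases) at 61.8%, and those of Ccn3 and Ccn6 (1065 bases) at 58%. The longest run of identical bases between Ccn3 and Ccn2 was 16 bases and that between Ccn3 and Ccn1 was 13 bases. Both stretches are shown with 15 bases on either side, in transcript sense, from the GENCODE M21 transcripts and with the shared run in capitals. They lie within coding exons of each gene. The bases directly next to each run differ between the genes, while many bases further out are alike.
Ccn3, chr15:54746240-54746285 (+), run shared with Ccn2: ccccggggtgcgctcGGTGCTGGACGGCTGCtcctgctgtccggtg
Ccn2, chr10:24595941-24595986 (+), run shared with Ccn3: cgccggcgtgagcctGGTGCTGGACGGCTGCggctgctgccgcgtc
Ccn3, chr15:54752215-54752257 (+), run shared with Ccn1: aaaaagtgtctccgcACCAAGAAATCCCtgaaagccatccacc
Ccn1, chr3:145647920-145647962 (-), run shared with Ccn3: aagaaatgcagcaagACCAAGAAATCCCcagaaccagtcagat

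Kallisto, the program behind these values, assigns reads by short words of sequence. At a word length of 31 bases the 4 CCN genes shared 0 words with one another, so no read word belongs to Ccn3 and a relative alike. Words shared with any other gene made up 0% of the 1970 words of Ccn1 and 1.49% of the 2819 words of Ccn3. They made up 19.7% of the 2867 words of Ccn2, whose partners include the overlapping Gm15270, and 32.7% of the 1389 words of Ccn6, all of them shared with Tube1. The values of Ccn2 and Ccn6 are therefore less certain than those of Ccn1 and Ccn3, and the use of strand in counting was not given in the sources used here.

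Ccn3 stood apart in mutant chow. The 3 control chow libraries gave a Ccn3 signal of 7.83, 10 and 11.9, and the 4 mutant chow libraries, in order of replicate, gave 139, 46.5, 106 and 83.5. The control HFD libraries gave 7.13 and 14.3, and Ccn3 was at 9.01, 7.17 and 4.65 in the libraries labelled mutant HFD. All 4 mutant chow libraries lay above all 8 others, and the lowest of them (46.5) was well clear of the highest of the rest (14.3), while the other 3 groups overlapped one another.

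The mean of Ccn3 was 93.7 ± 38.9 (SD, n = 4) in mutant chow against 9.92 ± 2.04 (n = 3) in control chow, a ratio of 9.45. It was 10.7 ± 5.05 (n = 2) in control HFD and 6.95 ± 2.19 (n = 3) in the libraries labelled mutant HFD. In order of the mean, mutant chow came first, followed by control HFD, control chow and the libraries labelled mutant HFD, and the values of these last 3 groups overlapped. Because Ccn3 was selected on these contrasts, its values are a description and no test is given for it. In bulk tissue, more cells with Ccn3 and more Ccn3 RNA per cell cannot be told apart.

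**Figure D1:**
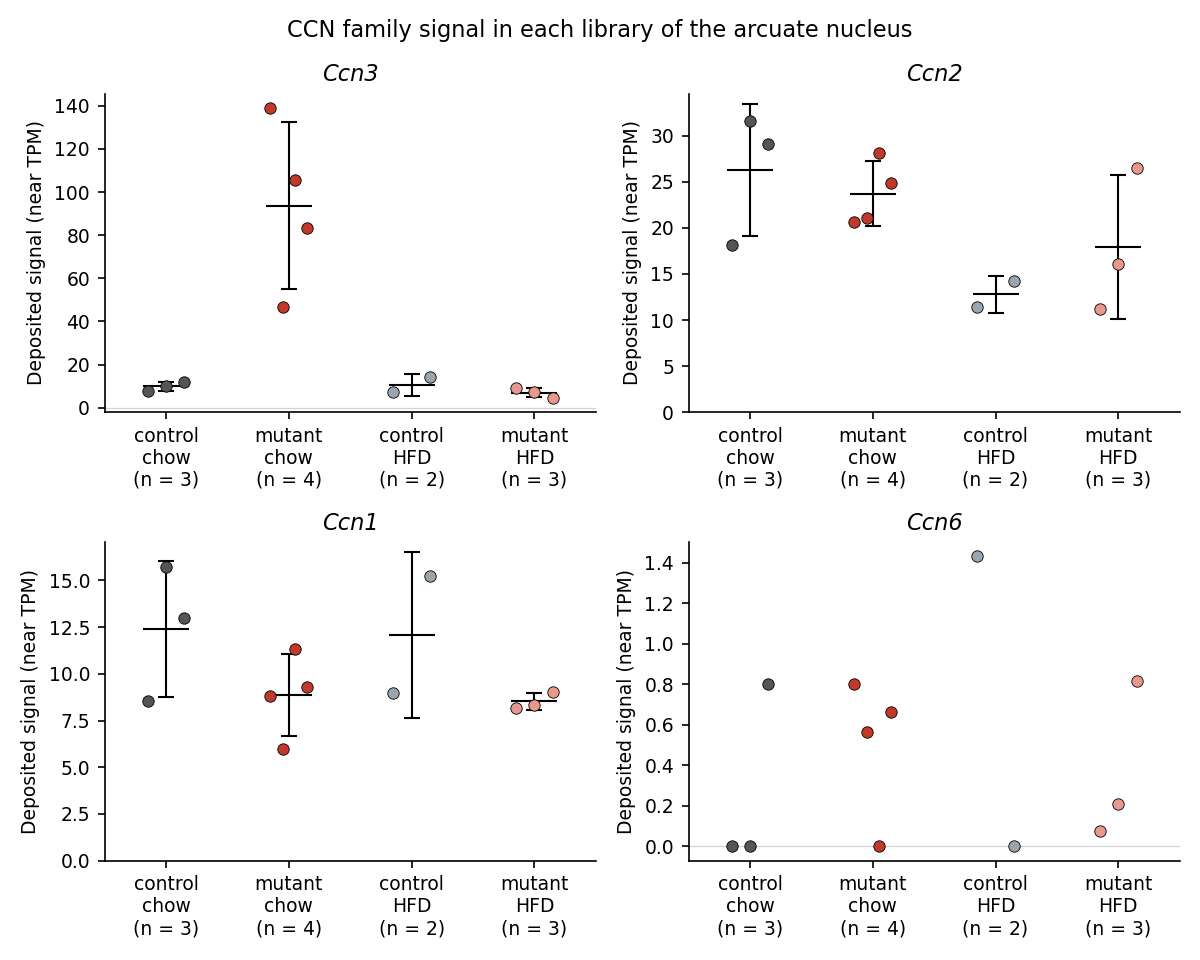
Deposited signal (vertical axes, near TPM, each including 0) of the 4 CCN genes in each library, by group. Points are libraries, and bars are the mean ± SD, left out for Ccn6, which is listed at 0 in 4 libraries. Mutant chow lies between 46.5 and 139 for Ccn3, above all other libraries, whereas the groups overlap for Ccn1 and Ccn6 and both genotypes overlap on each diet for Ccn2.

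Ccn2, the connective tissue growth factor gene and the member closest to Ccn3 in coding sequence, did not show this pattern. Its signal was 18.2, 31.6 and 29.1 in control chow and 20.7, 21.1, 28.2 and 24.9 in mutant chow. It was 11.4 and 14.2 in control HFD and 11.2, 16.1 and 26.5 in the libraries labelled mutant HFD. On chow, the mutant values all lay between the lowest and the highest control.

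In the controls, both HFD libraries (mean 12.8 ± 2.001, n = 2) lay below all 3 chow libraries (26.3 ± 7.13, n = 3) for Ccn2. The share of all genes so separated is not given here, and the difference was not called in the test below. Among mutants the diets overlapped, since the highest of the libraries labelled mutant HFD (26.5) lay inside the mutant chow range. The mean of those libraries was 17.9 ± 7.81 (n = 3) against 23.7 ± 3.52 (n = 4) in mutant chow. Over both genotypes the median was 24.9 on chow and 14.2 on HFD.

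Changes were tested with limma, which fits every gene on the scale of log2(signal + 1) and moderates its spread towards that of the other genes. A call required an adjusted p under 0.05 after Benjamini-Hochberg adjustment over all 15801 genes that reached a signal of 1 in 2 libraries. Of the CCN genes, Ccn1, Ccn2 and Ccn3 passed this filter and Ccn6 did not. The diet difference of Ccn2 in controls was a log2 change of -0.96 ± 0.34 (SE, 95% confidence interval -1.70 to -0.21), with a limma p of 0.0162 and an adjusted p of 0.998. It was therefore not called, and 332 genes (2.1% of those tested) were lower at an unadjusted p under 0.05 in the same comparison.

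From mutant chow to the libraries labelled mutant HFD the log2 change of Ccn2 was -0.46 ± 0.29 (interval -1.08 to 0.17, adjusted p = 0.924 by limma). The genotype difference was -0.12 ± 0.29 on chow (interval -0.74 to 0.51, adjusted p = 0.992; of the other sign without control chow replicate 2) and 0.38 ± 0.34 on HFD (interval -0.36 to 1.13, adjusted p = 1). The genotype by diet term, which asks whether the genotype difference itself differed between diets, was 0.50 ± 0.45 (interval -0.47 to 1.47, adjusted p = 0.999). The diet difference of Ccn2 in controls is thus not shown to differ from that in mutants, and each interval still allows changes of moderate size in Ccn2.

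Ccn1, a matrix protein gene that responds quickly to growth factors and mechanical load, varied least between groups of the 3 members tested. Its signal was 8.52, 15.7 and 12.97 in control chow and 8.83, 5.98, 11.3 and 9.30 in mutant chow. It was 8.95 and 15.2 in control HFD and 8.19, 8.34 and 9.04 in the libraries labelled mutant HFD. The groups overlapped on chow, and the highest values were found among the controls of both diets.

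Group means of Ccn1 were 12.4 ± 3.63 (n = 3), 8.86 ± 2.21 (n = 4), 12.1 ± 4.44 (n = 2) and 8.53 ± 0.453 (n = 3) in the same order. The mean was lower in mutants on both diets, with a log2 difference of -0.43 ± 0.29 on chow (interval -1.07 to 0.20, adjusted p = 0.982 by limma) and -0.42 ± 0.35 on HFD (interval -1.18 to 0.34, adjusted p = 1). Neither difference passed the test, and the second ran from -0.77 without control HFD replicate 1 to -0.06 without control HFD replicate 2. The diet change was -0.02 ± 0.29 in mutants (interval -0.66 to 0.61, adjusted p = 0.996) and -0.04 ± 0.35 in controls (interval -0.80 to 0.72, adjusted p = 1), and the genotype by diet term was 0.02 ± 0.46 (interval -0.97 to 1.01, adjusted p = 0.999). These last 3 values lay close to 0 and took the other sign under some alternatives.

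Ccn6, a member of low expression here, was listed at 0, 0 and 0.802 in control chow and at 0.801, 0.566, 0 and 0.662 in mutant chow. It was listed at 1.43 and 0 in control HFD and at 0.0727, 0.208 and 0.815 in the libraries labelled mutant HFD. It reached a signal of 1 in 1 library only, groups overlapped throughout, and no fold or test is given. Tube1, the tubulin gene that overlaps it, ranged from 0 to 6.01.

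Set side by side, the changes of Ccn3 lay outside the range of its relatives in every contrast that holds mutant chow. On chow the log2 difference between genotypes was 3.03 ± 0.36 for Ccn3 (interval 2.24 to 3.82), and the upper bounds for Ccn2 and Ccn1 were 0.51 and 0.20. For diet in mutants, which rests on libraries whose Esr1 goes against their label, it was -3.51 ± 0.36 for Ccn3 (interval -4.30 to -2.72), and the lower bounds for Ccn2 and Ccn1 were -1.08 and -0.66. The 95% intervals of the relatives thus did not reach the change measured for Ccn3. Ccn3 was selected on these contrasts, so its size and interval are a description and not a test.

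Where mutant chow is not involved, the intervals of Ccn3, again given as a description, included 0. Its log2 difference was -0.53 ± 0.43 between genotypes on HFD (interval -1.47 to 0.42) and 0.05 ± 0.43 between diets in controls (interval -0.90 to 0.99). For Ccn2 the same values were 0.38 and -0.96 and for Ccn1 they were -0.42 and -0.04, and the differences between the genes were not tested. The genotype by diet term of Ccn3 was -3.56 ± 0.57 (interval -4.79 to -2.33).

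A further contrast took its shape from Ccn3 and set mutant chow against the mean of the other 3 groups. Ccn3 stood 3.17 ± 0.29 higher on the log2 scale. For Ccn2 the value was 0.39 ± 0.23 (interval -0.11 to 0.90, adjusted p = 0.898 by limma) and for Ccn1 it was -0.27 ± 0.24 (interval -0.78 to 0.24, adjusted p = 0.925), so the relatives lay on opposite sides of 0 and neither was called. Without the 3 libraries labelled mutant HFD, an alternative added after the data were seen, the values were 3.01 for Ccn3, 0.36 for Ccn2 and -0.41 for Ccn1.

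Of the 2 relatives tested, 0 were called in any of the 6 comparisons. Calls were rare over all genes too. The genotype comparison called 0.019% of genes on chow and 0.00633% on HFD, and the diet comparison called 0.019% in mutants and 0% in controls. The genotype by diet term called 0% and mutant chow against the rest called 0.0316%. With so low a background, the absence of calls among 2 genes is no result about them, and the intervals carry the comparison. Apart from Ccn3, which is not tested here but counts in these shares where it was selected, the genes called were Fst and Rps7 on chow, Fst and Gm10563 for diet in mutants, and Fst, Grp, Penk and Rps7 for mutant chow against the rest. Rps7 was the gene called for genotype on HFD. At an unadjusted p under 0.05 neither relative was among the 2.59% of genes higher or the 1.75% lower in mutants on chow, nor among the 1.44% higher or the 3.94% lower on HFD in mutants. Among the 3 members tested, only Ccn3 had all mutant chow libraries above every other library, which held for 0.462% of all genes and is what Ccn3 was chosen for. The contrasts share groups, so their values are not independent of one another.

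**Figure D2:**
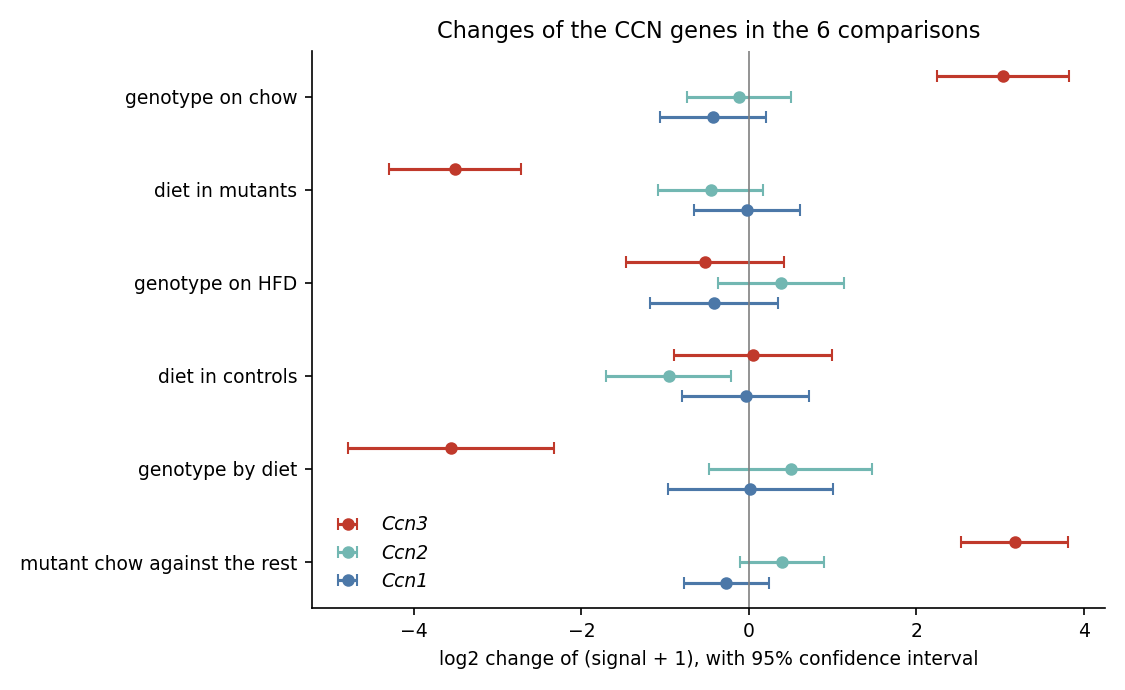
Log2 change of (signal + 1) with its 95% confidence interval (horizontal axis) for Ccn3, Ccn2 and Ccn1 in the 6 comparisons (vertical axis). Ccn3, shown as a description, stands at 3.03 between genotypes on chow and at -3.51 between diets in mutants, whereas the intervals of Ccn1 include 0 throughout and those of Ccn2 include 0 except for diet in controls.

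The make-up of the family signal followed. In control chow, Ccn2 made up 53.6 ± 1.3% (SD, n = 3) of the summed signal of the 4 genes, Ccn1 25.2 ± 1.94% and Ccn3 20.6 ± 2.78%. In mutant chow, Ccn3 made up 72 ± 7.98% (n = 4), with 82.1, 62.7, 72.8 and 70.6% in replicates 1 to 4. Ccn2 was the leading member in all control chow libraries and Ccn3 in all mutant chow libraries.

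On HFD the share of Ccn3 was 28.7 ± 5.63% in controls (n = 2) and 21.9 ± 10.2% in the libraries labelled mutant HFD (n = 3). The summed signal was 48.9 ± 12.5 in control chow, 127 ± 40.8 in mutant chow, 36.3 ± 10.5 in control HFD and 33.8 ± 6.49 in the libraries labelled mutant HFD. Without Ccn3 the sums were 39.0 ± 10.8, 33.1 ± 5.21, 25.6 ± 5.42 and 26.8 ± 8.65, so that mutant chow then lay within the spread of control chow. No test is given for these sums and shares, since Ccn3 drives them.

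**Figure D3:**
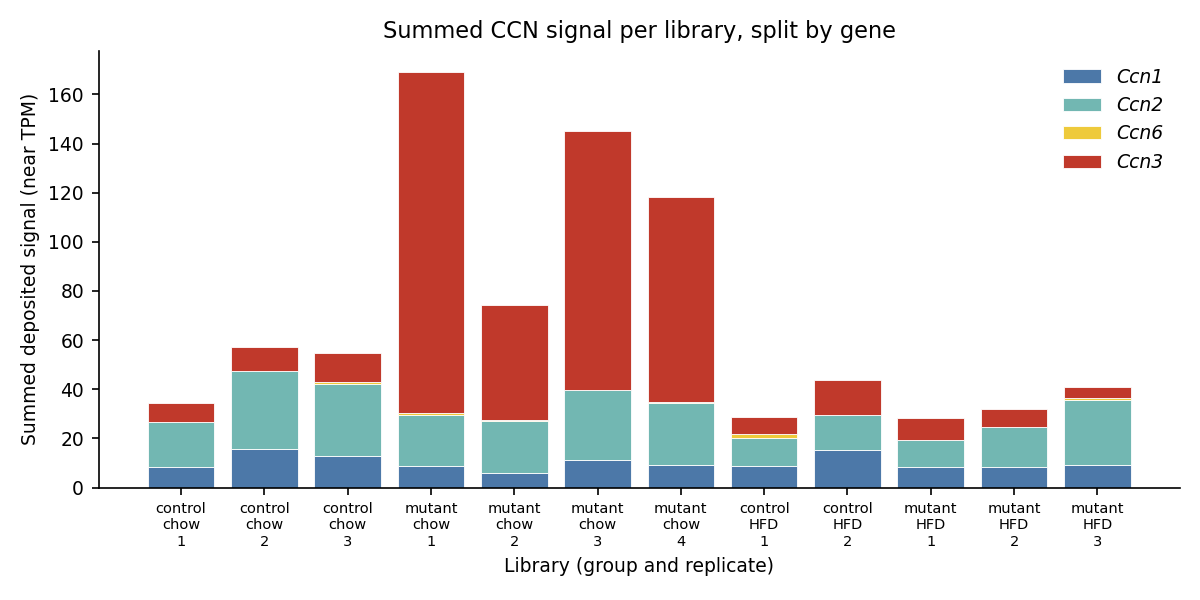
Summed signal of the 4 CCN genes (vertical axis, near TPM) in each of the 12 libraries, with the part of each gene stacked by colour. The Ccn3 part is between 46.5 and 139 in mutant chow and at most 14.3 elsewhere, and the parts below it are of like height on chow in both genotypes.

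The balance of Ccn2 to Ccn1, which Ccn3 does not touch, was lowest in control HFD. The ratio of Ccn2 to Ccn1 was 2.14, 2.01 and 2.25 in control chow and 2.34, 3.53, 2.48 and 2.68 in mutant chow. It was 1.27 and 0.933 in control HFD and 1.36, 1.93 and 2.93 in the libraries labelled mutant HFD. All mutant chow ratios lay above all control chow ratios, both control HFD ratios lay below every chow ratio, and the libraries labelled mutant HFD lay from near the upper control HFD ratio to inside the mutant chow range. The ratio was looked at after the values were seen and has no test. The share of other gene pairs that separate in this way is not given here, so the separation is a description only.

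The genes most like Ccn3 came from outside the family. Likeness was measured as the root mean square difference between log2(signal + 1) profiles over the 12 libraries, each centred on its own mean, so that a small value means a like pattern of like size. The closest of 15800 other genes were Fst (0.457), Igf1 (0.655), Grp (0.770), Csn1s2b (0.836) and Tgtp1 (0.887). Ccn2 ranked 2822 with a difference of 1.495 and Ccn1 ranked 9974 with 1.66. These genes were picked for their likeness, so their levels are a description.

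Fst encodes follistatin, a secreted inhibitor of activins. Its signal was 1.48, 1.45 and 0.552 in control chow and 22.3, 9.19, 33.2 and 13.3 in mutant chow, and it lay between 0.842 and 1.68 on HFD. Igf1, the insulin-like growth factor 1 gene, was at 0.351, 1.95 and 0.538 in control chow and at 11.2, 3.79, 10.4 and 6.19 in mutant chow, and between 0.225 and 1.99 on HFD. Both genes had all mutant chow libraries above all others, as Ccn3 did.

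The measure of likeness favours genes that order the libraries as Ccn3 does, so such an order is a description only. Within mutant chow, Ccn3 and Igf1 ordered the libraries alike, with replicate 1 highest, followed by replicates 3, 4 and 2. Fst had the same order except that replicate 3 lay above replicate 1. Grp, the gastrin-releasing peptide gene, was at 2.13, 11.7 and 4.92 in control chow and at 26.5, 28.0, 121 and 35.8 in mutant chow, so its order differed and replicate 3 led. Csn1s2b, a casein gene, and Tgtp1, an interferon-induced GTPase gene, were each listed at 0 in at least 1 library and at no more than 12.3 and 13.9 in any, and Tgtp1 overlapped between groups on chow. The lowest Csn1s2b signal in mutant chow was 1.154 and the highest elsewhere was 0.9738. Csn1s2b thus passed the filter through mutant chow alone, so its likeness to Ccn3 was in part set by the filter.

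**Figure D4:**
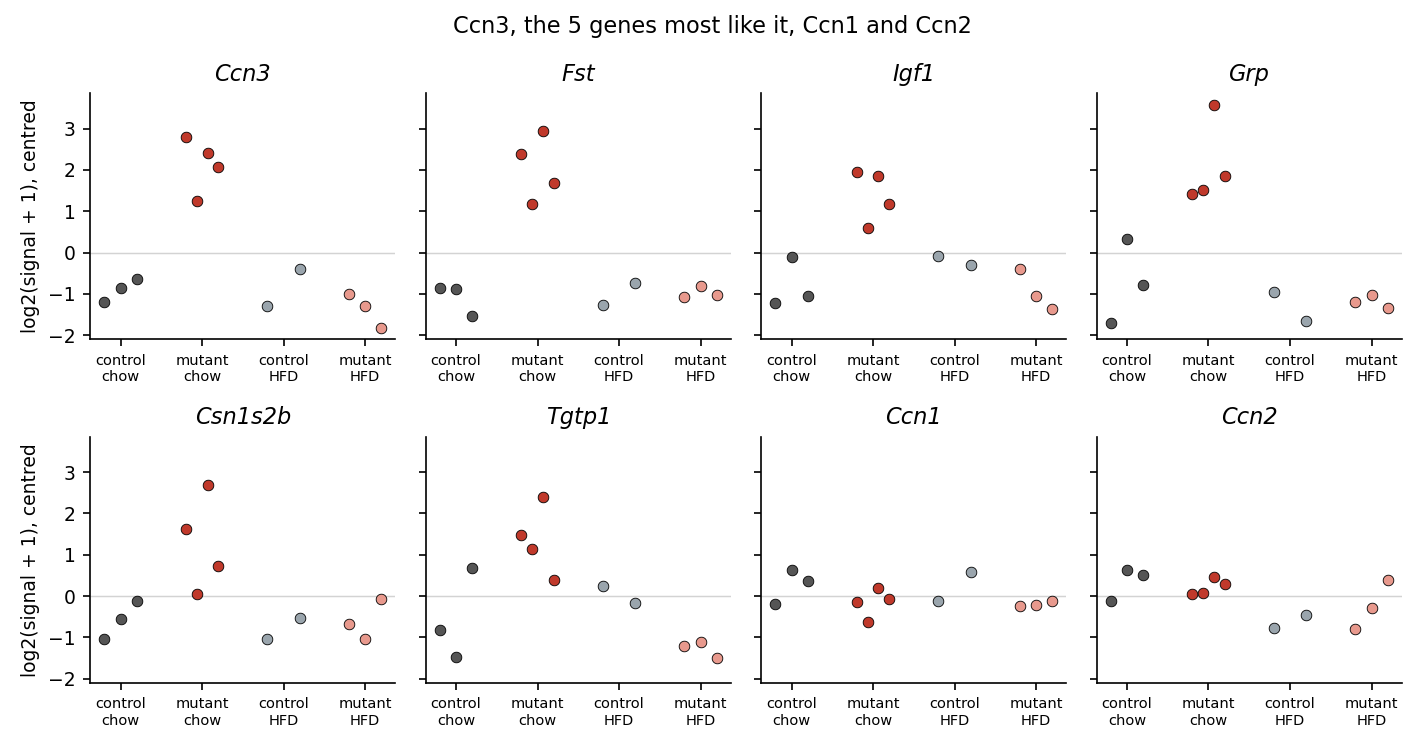
Log2(signal + 1), centred on the mean of each gene (vertical axes), in each library by group for Ccn3, the 5 genes most like it, Ccn1 and Ccn2. Mutant chow lies apart from the other groups for Ccn3, Fst, Igf1 and Grp, and not for Ccn1 and Ccn2.

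Genes around the family were taken by list, from receptors to pathways, and each list was described by its counts and median. None of the genes in the 5 lists below passed the adjusted threshold in any of the 6 comparisons, so the counts below are at an unadjusted p under 0.05 and are to be read against the shares of all genes given above. The median over all genes tested was a log2 change of 0.014 between genotypes on chow and -0.025 between diets in mutants. Apart from Notch1, the list genes with values given below were picked for a lack of overlap in either of these contrasts. That separation was set by the choice.

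Of the 14 CCN receptors and binding partners, all tested, 1 was higher and 0 were lower in mutants on chow (median 0.089). On HFD in mutants 0 were higher and 2, Itgam and Itgb5, were lower (median -0.356), and 0 of the 14 had a positive change. Itgam, the integrin alpha M gene of microglia and other myeloid cells, was at 8.36, 4.15 and 5.45 in control chow, at 12.6, 10.7, 12.7 and 10.1 in mutant chow, at 8.19 and 6.91 in control HFD and at 3.82, 7.68 and 9.13 in the libraries labelled mutant HFD. Mutant chow thus lay above all other libraries. Its log2 difference was 0.88 ± 0.31 between genotypes on chow (limma adjusted p = 0.982) and -0.73 ± 0.31 between diets in mutants (adjusted p = 0.912). Itga5, a fibronectin receptor subunit gene, had a mean of 2.26 ± 0.354 in mutant chow and 0.930 ± 0.183 in the libraries labelled mutant HFD (adjusted p = 0.916). Its mean was 1.91 ± 1.86 in control chow and 0.802 ± 0.310 in control HFD.

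Notch1, which encodes a receptor that CCN3 binds and was looked at after its values were seen, overlapped between genotypes on each diet. Its signal was 9.36, 6.86 and 17.6 in control chow, 39.2, 9.95, 80.2 and 12.9 in mutant chow, 28.8 and 24.9 in control HFD, and 5.99, 8.70 and 83.9 in the libraries labelled mutant HFD. Both control HFD libraries lay above all control chow libraries, and 80.2 and 83.9 were the highest values of the mutant groups.

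Of the 13 Notch ligands and targets, Hes5 was higher and Hey2 lower in mutants on chow (median 0.007), and Hes5 alone was lower on HFD in mutants (median -0.152). Hes5, a Notch target gene of neural progenitors and astroglia, was at 23.1, 20.1 and 16.9 in control chow and at 34.2, 29.6, 71.2 and 36.1 in mutant chow. On HFD it was at 31.5 and 37.8 in controls and at 18.8, 16.1 and 12.9 in the libraries labelled mutant HFD. Groups did not overlap within either genotype or within either diet. Hes5 was named for its lack of overlap on chow and in mutants, so those separations were set by the choice. The share of all genes without such overlap is not given here. Unlike Ccn3, Hes5 was as high in control HFD as in most of mutant chow. Its log2 change was 0.98 ± 0.28 between genotypes on chow (limma adjusted p = 0.956) and -1.30 ± 0.28 between diets in mutants (adjusted p = 0.444). Dll4, a Notch ligand gene, had a mean of 2.55 ± 0.468 in mutant chow and 1.51 ± 0.402 in the libraries labelled mutant HFD (adjusted p = 0.939). In controls, the Dll4 mean was 4.33 ± 3.93 on chow and 4.47 ± 2.23 on HFD.

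Of the 20 genes of the Hippo pathway and its TEAD targets, 19 were tested. On chow 0 were higher and 1, Ajuba, was lower in mutants (median -0.016), and 0 were either higher or lower on HFD in mutants (median -0.057). Ajuba, a LIM protein gene that restrains the pathway kinases, had a mean of 5.96 ± 0.731 in control chow (n = 3) and 3.27 ± 1.29 in mutant chow (n = 4), a log2 difference of -0.75 ± 0.32 (limma adjusted p = 0.982). It also had a mean of 6.34 ± 0.888 in control HFD and 2.67 ± 0.761 in the libraries labelled mutant HFD. Ptpn14, a phosphatase gene that holds YAP back, had a mean of 1.68 ± 0.608 in mutant chow and 0.810 ± 0.191 in the libraries labelled mutant HFD (adjusted p = 0.924). In controls, the Ptpn14 mean was 1.295 ± 0.363 on chow and 1.217 ± 0.724 on HFD.

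The TEAD motif CATTCC was sought on both strands in RefSeq promoters (GRCm38.p6, windows of 300 bases around the start site). Ccn1 held 1 match, 103 bases before its start site, and Ccn6 held 0, while 14.7% of 32851 promoters held at least 1. Neither of these windows held the AP-1 motif TGANTCA, found in 7.81% of promoters, nor the full palindromic oestrogen response element, found in 0.07%. Promoters of Ccn2 and Ccn3 were not analysed here. A match is a description of the letters only.

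Of the 11 TGF-beta ligands, receptors and SMADs, 0 were higher or lower in mutants on chow (median 0.088) and 2, Tgfbr2 and Tgfb1, were lower on HFD in mutants (median -0.219). Tgfbr2, a TGF-beta receptor gene, had a mean of 9.41 ± 0.285 in mutant chow (n = 4) and 4.57 ± 0.899 in the libraries labelled mutant HFD (n = 3), a log2 change of -0.92 ± 0.34 (limma adjusted p = 0.825). Control chow was at 3.936, 3.256 and 10.7, which spans both mutant groups, and control HFD at 8.625 and 6.696. Tgfb1, a ligand gene, had a mean of 6.31 ± 0.682 in control chow and 10.1 ± 3.11 in mutant chow, a log2 difference of 0.57 ± 0.29 (adjusted p = 0.982).

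Of 15 other matricellular genes, such as tenascins, thrombospondins and SPARC, 14 were tested and 0 were higher or lower in either contrast (medians 0.118 and -0.135). Fbln1, the fibulin 1 gene, had a mean of 6.75 ± 2.91 in mutant chow and 3.25 ± 0.300 in the libraries labelled mutant HFD (log2 change -0.79 ± 0.43, limma adjusted p = 0.916). In controls, the Fbln1 mean was 3.38 ± 2.21 on chow and 2.88 ± 2.17 on HFD. Smoc2 had means of 3.98 ± 0.839 in mutant chow and 2.22 ± 0.218 in the libraries labelled mutant HFD (log2 change -0.61 ± 0.30, adjusted p = 0.916). In controls, too, Smoc2 had a lower mean on HFD (1.56 ± 0.520) than on chow (3.60 ± 1.08). The pattern of Ccn3 was thus not seen, at its size, in the matricellular genes tested.

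**Figure D5:**
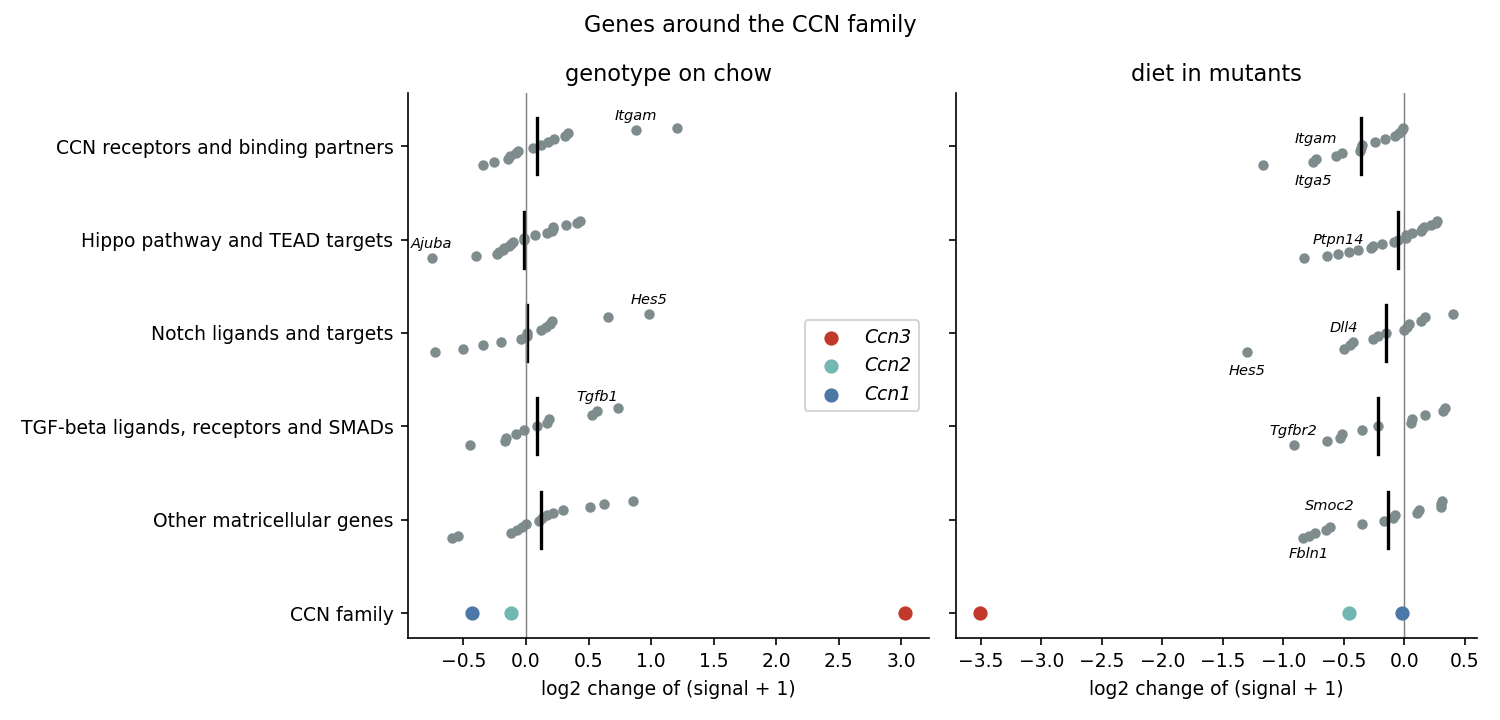
Log2 change of (signal + 1) for the genes of 5 lists and for the CCN family (vertical axis), with the genotype comparison on chow on the left and the diet comparison in mutants on the right. Grey points are genes, black bars are list medians and named genes are those described, and Ccn3 at 3.03 and -3.51 lies beyond every point of the lists.

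Markers of the cells and neighbouring regions that the dissection could hold were examined beside the pattern of Ccn3. The summed signal of 6 microglial markers was 441 to 475 in mutant chow, against 229 to 354 in control chow, 231 to 318 in control HFD and 232 to 324 in the libraries labelled mutant HFD, so mutant chow lay above all other libraries for this list as it did for Ccn3. All 6 had a positive change on chow (median log2 0.544) and 0 of 6 on HFD in mutants (median -0.569). The same 4 of them, Tmem119, C1qa, C1qb and Csf1r, passed an unadjusted p under 0.05 on chow and on HFD, and 0 passed after adjustment. The part of microglia in the values of Ccn3 and Itgam was not tested.

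Oligodendrocyte markers had changes of the same sign (6 of 6 positive on chow, median 0.662, and 0 of 6 on HFD in mutants, median -0.659), but their sums overlapped, at 1143 to 3637 in control chow, 1707 to 5511 in mutant chow, 1679 to 3456 in control HFD and 1745 to 2652 in the libraries labelled mutant HFD. Their part in the values of Ccn3 was not tested either.

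The suprachiasmatic nucleus lies close to the ARC, and 8 markers of it were examined. Their sum, led by Avp, varied widely within mutant chow and within the libraries labelled mutant HFD. On chow 7 of 8 had a positive change (median log2 0.576), as had 5 of 8 on HFD in mutants (median 0.069), and 0 passed an unadjusted p under 0.05 in either. Their sum was 153 to 378 in control chow, 132 to 3111 in mutant chow, 283 to 288 in control HFD and 733 to 2620 in the libraries labelled mutant HFD. Avp led this sum, with 77.3 in mutant chow replicate 1 and 3051 in replicate 2, and the highest sums were largely made up of it. Vip, another marker of the list, was between 0 and 5.85 in all libraries. The marker sum of the libraries labelled mutant HFD was above that of every control library, and Avp alone ran from 677 to 2553 there. The part of suprachiasmatic tissue in the values of Ccn3 was not tested.

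The other lists did not set mutant chow apart from every other group. The summed signal of 8 endothelial markers was 117 to 174, 101.4 to 247, 69.0 to 135 and 98.3 to 134 in control chow, mutant chow, control HFD and the libraries labelled mutant HFD. In the same order, the sum of 8 mural markers was 70.1 to 126, 77.9 to 102, 63.1 to 67.3 and 73.7 to 89.9, and that of 8 leptomeningeal markers was 84.4 to 266, 137 to 154, 124 to 124 and 80.5 to 110. The leptomeningeal sum was higher in mutant chow than in the libraries labelled mutant HFD, and its part in the diet difference of Ccn3 was not tested. Ccn2, often high in vessels and meninges, and the mural list both had lower values in control HFD than in either chow group, and the part of mural cells in that difference was not tested.

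The sum of 8 tanycyte markers was 640 to 856, 519 to 920, 441 to 760 and 411 to 501 in the same order, and mutant chow overlapped both control groups but lay above the libraries labelled mutant HFD. The change had a positive sign for 2 of the 8 on chow (median log2 -0.121) and for 0 of 8 on HFD in mutants (median -0.522), and the part of tanycytes in the diet difference of Ccn3 was not tested. The sum of 10 markers of ARC neurons was 3697 to 7998, 4298 to 8317, 2189 to 6537 and 3821 to 4452, which overlapped between all groups. The 5 listed of 7 pituitary markers summed to between 116 and 5603, with both extremes in control libraries.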

How the data were processed

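RNA from the ARC was sequenced in 12 libraries. According to the submitters' processing notes, kallisto, sleuth and mm10 were used, and their versions and the annotation release were not given in the sources used here. The deposited table, made by the authors, holds 1 normalised abundance signal per gene and library, near the scale of TPM, and not counts. The scaling between libraries was not given in the sources used here. Columns were matched to labels by name, with 0 unmapped and 0 identical pairs of libraries, and symbols and positions came from GENCODE M21 (7 genes without a symbol).

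Values were taken as log2(signal + 1), with a filter of a signal of at least 1 in at least 2 libraries. limma 3.58.1 in R 4.3.3, with 1 mean per group and its trend of variance on level, was run on all 12 libraries, two-sided, with Benjamini-Hochberg adjustment over 15801 genes, and was tested on simulated data. The plan covered both counts and abundances, and its part for abundances was used. Sleuth's own test was not run here. Named genes were the CCN members, Esr1, the 5 genes most like Ccn3, and up to 2 genes per list with the largest change and no overlap between groups, along with others said to be chosen after their values were seen or named to explain a count of 5 or fewer. The members and lists were chosen with earlier results of these data known. Sequences were aligned with Biopython 1.88 in Python 3.11.15. Alternatives were quantile normalisation, columns rescaled to a sum of 1000000, limma without the trend or with array weights, no filter, a filter on the mean (5 or more), 0.1 as pseudocount, a fit of only the groups compared, each library left out and, added after the data were seen, no libraries labelled mutant HFD. Results by gene for the tanycyte list are not reported here.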

Additional observations from a re-analysis of the deposited data

Results flagged for a closer look

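In mutant chow replicate 3, Grp stood at 121, with the other 3 libraries of the group at 26.5 to 35.8. Hes5 stood at 71.2 in the same library, with the others at 29.6 to 36.1. In each case the gap to the nearest library took up most of the range of the group (0.902 and 0.844 of it). These were 2 of 20 groups of 4 libraries examined. The groups share the same mutant chow libraries, and many of their genes were picked on these values. The count is thus a description and is not weighed against the rough rate of 1 in 20 by chance. Replicate 3 of mutant chow also had the most genes listed at 0 (1768).

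Igf1 and Hes5 moved in opposite directions with genotype on the 2 diets, and every library of a group lay on its side. Both genes had been picked on these values, and the share of all genes that do so is not given here. The genotype by diet term was -2.93 for Igf1 and -2.07 for Hes5 on the log2 scale, and neither passed adjustment (limma adjusted p = 0.999 for both). These terms rest on the libraries labelled mutant HFD, whose Esr1 values go against their label.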

How the results depend on the processing

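No paired analysis was possible because replicates were numbered as deposited and no number ties libraries across groups. Of Ccn1 and Ccn2, 0 were called in any of the 6 comparisons under every alternative that gave a value, 20 per comparison and 19 for genotype by diet. The log2 change of Ccn3 ranged from 2.81 to 3.33 for genotype on chow and from -3.81 to -3.25 for diet in mutants.

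Small changes of Ccn1 took the other sign. Its change for diet in mutants was 0.0758 with quantile normalisation and 0.0924 with array weights, and ran from -0.18 to 0.10 with 1 library left out. For diet in controls it was 0.10 with rescaled columns, 0.0485 with array weights and -0.39 to 0.31 with 1 library left out, and for genotype by diet it was -0.14 with rescaled columns and -0.34 to 0.37. Ccn2 for genotype on chow ran from -0.35 to 0.0283, the last without control chow replicate 2. The change of Ccn2 for diet in mutants was -0.77 without replicate 3 labelled mutant HFD and -0.18 without replicate 1, its genotype difference on HFD was 0.07 and 0.66 without the same libraries, and that of Ccn1 on HFD ran from -0.77 to -0.06. All these values lie within the intervals of the report, and the cause was not tested.

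With Ccn3 left out of the sum, the share of Ccn2 was 67.6% in control chow, 71.8% in mutant chow, 50.3% in control HFD and 65.2% in the libraries labelled mutant HFD, a result of the sum itself. At a pseudocount of 0.1, 3 of the 5 genes most like Ccn3 were shared (Fst, Igf1 and Grp). Comparing only the groups at hand gave no separate value for genotype by diet, which uses all 4. With a control HFD library left out, the other is assumed to vary like the remaining groups. The diet change of Ccn2 in controls kept its sign, from -1.19 to -0.81 (adjusted p 0.572 to 1). Sequencing depth is unknown and limits what can be said of Ccn6.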
